A study of Mus musculus with 8 samples.

Results

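Hox genes encode homeodomain transcription factors that lie in 4 clusters, HoxA, HoxB, HoxC and HoxD, and are numbered by paralog group, so that genes with the same number in different clusters descend from 1 ancestral gene. During development low-numbered genes switch on early and towards the head, and high-numbered genes switch on later and towards the tail and the tip of the limb. Cultured cells often keep a Hox pattern that reflects where in the body their tissue came from. The members described here were all genes of the count table whose symbol is Hoxa, Hoxb, Hoxc or Hoxd followed by a number, which gave 39 of 42391 genes: 11 in HoxA, 10 in HoxB, 9 in HoxC and 9 in HoxD, covering 13 paralog numbers.

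RNA was sequenced from C2C12 cells, a mouse myoblast line, and from primary myoblasts (pMb), both listed as WT. The pMb came from hindlimb muscle of mice 5 weeks old. C2C12 received 50 nM siRNA, at a higher concentration for the first 5 h, and were collected 60 h after transfection with 12 h in differentiation medium, while pMb were collected 48 h after transfection without leaving proliferation medium. In each cell type a non-targeting siRNA (control) was compared with a Septin9 siRNA in 2 replicates, 8 samples in all, and nothing states whether a replicate of pMb was 1 animal or a pool. Cell type, differentiation medium and time after transfection therefore cannot be told apart in any comparison of C2C12 with pMb. A p-value between the control cell types measures the spread between 2 replicates of each cell type. A p-value for the siRNA measures how far its effect varied between the 2 same-numbered pairs of samples.

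Septin9 itself stood at 409 and 435 CPM (reads scaled to the size of the library) in control C2C12 and at 147 and 185 CPM after its siRNA. In pMb it stood at 375 and 473 CPM in control and at 208 and 159 CPM after the siRNA. The library totals lay between 20898611 and 27223414 counted reads, and a count of 0 in a library allowed a level of up to 0.110 to 0.143 CPM (3 counts). The 8 myogenic markers were all detected in every sample. The pMb of replicate 2 stood apart from those of replicate 1 under both siRNAs: Pdgfra, a receptor of mesenchymal progenitors, was at 31.7 and 32.0 CPM against 1.03 and 0.89, and the 9 fibroblast markers summed to 117 and 111 CPM against 36.4 and 31.4. The 5 endothelial markers summed to at most 4.77 CPM in any library, and the 5 macrophage and blood markers to at most 4.01 CPM. Some of these also had more reads in the pMb of replicate 2. Cdh5 had 6 and 9 reads in replicate 1 and 46 and 33 in replicate 2, and Lyz2 1 and 13 against 39 and 53. Cd68 did not, with 50 and 34 against 55 and 19.

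The HoxA cluster (on the minus strand of chr6 in GRCm38.p6) and the HoxD cluster (chr2:74668225-74765142, plus strand) are set side by side here, since HoxA was active in both cell types and HoxD was nearly silent in C2C12. HoxB lies at chr11:96194316-96368254 and HoxC at chr15:102921131-103036856, both on the plus strand. The 250 bases before the RefSeq start of 3 genes are shown because they set an active gene, Hoxa10 (chr6:52240855-52241104, minus strand), beside its nearly silent paralog Hoxd10 (chr2:74691641-74691890) and beside Hoxd8 (chr2:74704365-74704614), which had reads in pMb and none in C2C12; capitals mark CG dinucleotides.
Hoxa10: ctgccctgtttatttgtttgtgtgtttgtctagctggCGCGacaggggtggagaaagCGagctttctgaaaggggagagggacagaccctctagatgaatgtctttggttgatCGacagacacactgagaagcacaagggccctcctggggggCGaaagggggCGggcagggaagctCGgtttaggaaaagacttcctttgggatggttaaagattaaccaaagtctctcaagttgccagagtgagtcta
Hoxd10: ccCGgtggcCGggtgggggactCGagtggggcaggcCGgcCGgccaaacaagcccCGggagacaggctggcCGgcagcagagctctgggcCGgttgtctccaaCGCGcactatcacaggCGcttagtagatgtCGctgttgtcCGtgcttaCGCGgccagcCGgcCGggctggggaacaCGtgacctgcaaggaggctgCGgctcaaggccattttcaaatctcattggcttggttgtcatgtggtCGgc
Hoxd8: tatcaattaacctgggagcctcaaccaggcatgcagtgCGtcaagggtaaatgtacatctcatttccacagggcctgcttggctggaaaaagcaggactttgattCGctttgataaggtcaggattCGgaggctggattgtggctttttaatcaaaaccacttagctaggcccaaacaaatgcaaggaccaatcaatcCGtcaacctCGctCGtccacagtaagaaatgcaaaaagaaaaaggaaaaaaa
The Hoxa10 window held 7 CG dinucleotides, the Hoxd10 window 20 and the Hoxd8 window 6, against a median of 6 over 32851 RefSeq windows of the same length. Hoxa10 had 2 RefSeq windows, of which 1 is shown, and which start gave its reads was not tested. RefSeq windows were matched for 22 of the 39 members, 9 in HoxA, 3 in HoxB, 1 in HoxC and 9 in HoxD. The median was 13 CG dinucleotides in the 9 HoxA windows and 12 in the 9 HoxD windows. TGATNNAT, a sequence bound by Hox and Pbx proteins together, was searched on both strands. It was present in 3 of the 22 windows, those of Hoxa2, Hoxb1 and Hoxb8, and in 7.68% of all windows.

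HoxA and HoxC carried almost all Hox reads in both cell types. In control C2C12 they gave 99.83% and 99.82% of the Hox reads in replicates 1 and 2, and in control pMb 98.03% and 96.13%. HoxA summed to 137 ± 2.60 CPM (SD, n = 2) in control C2C12 and to 101 ± 2.37 CPM in control pMb, and HoxC to 163 ± 13.1 and 102 ± 2.32 CPM. HoxB summed to 0.508 ± 0.0101 CPM in control C2C12 and to 2.44 ± 2.12 CPM in control pMb. HoxD gave 1 read in control C2C12 and summed to 3.69 ± 0.780 CPM in control pMb. A gene was counted as expressed at 1 CPM or more in both control samples: 18 members passed in C2C12 (10 HoxA and 8 HoxC) and 17 in pMb (8 HoxA, 8 HoxC and Hoxd8). These lists shared 16 genes, Hoxa2 and Hoxa13 passed in C2C12 alone, and Hoxd8 in pMb alone. Hoxb1, Hoxb5, Hoxd1 and Hoxd12 had 0 reads in all 8 samples.

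**Figure D1:**
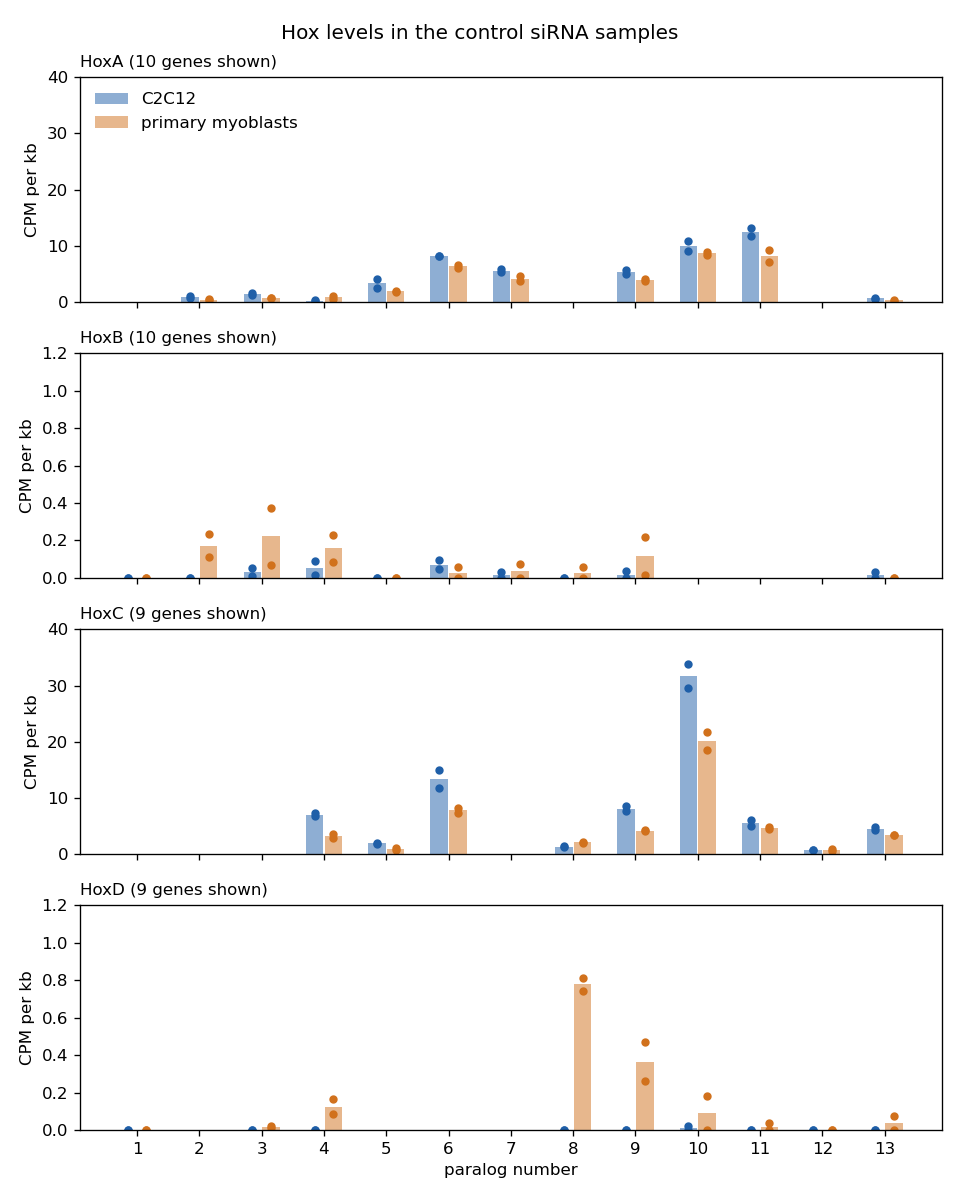
Level of the Hox genes in the control siRNA samples, in CPM per kb of exon, by cluster (panels) and paralog number (horizontal axis). Bars are means of 2 samples and points the samples; the HoxA and HoxC panels run to 40 and the HoxB and HoxD panels to 1.2 CPM per kb, and 1 HoxA gene is not drawn. Hoxc10 stands highest in both cell types, and HoxD bars above 0.2 CPM per kb are seen only for Hoxd8 and Hoxd9, in primary myoblasts.

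To compare genes with each other, levels were divided by exon length and are given as CPM per kb. Hoxc10, a gene of the lumbar region and hindlimb, was the highest Hox gene in both cell types, at 29.6 and 33.9 CPM per kb in control C2C12 and 21.7 and 18.5 CPM per kb in control pMb. In C2C12 it was followed by Hoxc6 (13.4 ± 2.26 CPM per kb), a gene of the thoracic region and forelimb, then by Hoxa11 (12.5 ± 1.08) and Hoxa10 (9.96 ± 1.24), which pattern the middle and upper limb. In pMb Hoxa10 (8.66 ± 0.34 CPM per kb), Hoxa11 (8.16 ± 1.47) and Hoxc6 (7.79 ± 0.63) followed Hoxc10, and neighbours among these 3 overlapped between replicates. Hoxa6 stood at 8.18 ± 0.09 CPM per kb in control C2C12 and 6.33 ± 0.35 in control pMb. The levels of Hoxc11 were 5.55 ± 0.75 and 4.63 ± 0.34 CPM per kb. Of the 17 steps between neighbours in the C2C12 order 6 overlapped between replicates, and 9 of 16 did in pMb. When RefSeq-matched exons set the length, Hoxc10 stayed first in both cell types and Hoxc6 came second in both, at 20.4 CPM per kb in C2C12 and 11.9 in pMb.

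Summed over the clusters, paralog group 10 was the highest of the 13 groups in both cell types, at 41.7 ± 4.33 CPM per kb in control C2C12 and 28.8 ± 1.74 in control pMb. Group 6 followed at 21.6 ± 2.38 and 14.2 ± 0.319 CPM per kb, group 11 at 18.0 ± 1.82 and 12.8 ± 1.83, and group 9 at 13.5 ± 0.267 and 8.48 ± 0.538. The posterior groups 9 to 13 together held 63.2% and 63.7% of the summed Hox level in the control C2C12 samples and 62.9% and 63.6% in the control pMb samples. The central groups 4 to 8 held between 32.4% and 33.2% in the 4 control samples, and the anterior groups 1 to 3 between 3.61% and 4.06%. These shares of the whole differed between the cell types by less than 1 percentage point while the levels themselves differed. The sums and shares depend on the exon length used. With RefSeq-matched exons Hoxc6 went from 13.4 to 20.4 CPM per kb in control C2C12, and Hoxa9 from 5.34 to 9.23.

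The anterior genes were low. Hoxa3, a gene of the pharyngeal arches, stood at 1.42 ± 0.22 CPM per kb in control C2C12 and 0.74 ± 0.03 in control pMb. Hoxa2 had 30 and 49 reads in control C2C12 and 12 and 22 in control pMb. At the other end of the clusters Hoxc13, known from hair follicles and nails, was well above its HoxA paralog Hoxa13, a gene of the hand and foot plate: Hoxc13 stood at 4.50 ± 0.42 CPM per kb in control C2C12 and 3.41 ± 0.08 in control pMb, and Hoxa13 at 0.65 ± 0.17 and 0.26 ± 0.04. Hoxc12 lay between 0.61 and 0.87 CPM per kb in the 4 control samples.

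Across all 39 members the control levels in C2C12 and pMb had a Spearman rho of 0.893, and across the 20 HoxA and HoxC members 0.931. Between the replicates of control C2C12 the same 20 members gave 0.988, and between those of control pMb 0.965. These are correlations across genes, which share libraries and cluster and are not independent replicates.

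Between control pMb and control C2C12, 22 members had enough reads to be tested: the 20 HoxA and HoxC members plus Hoxd8 and Hoxd9. By edgeR's quasi-likelihood test, 7 of the 22 passed an adjusted p of 0.05 with at least a 1.5-fold difference, against 33.3% of the 17103 genes tested, so the share of Hox genes called (31.8%) was near that of all genes. Of 19 HoxA and HoxC members 16 had a negative log2 difference. The median over all 20 was -0.53, against 0.01 over all genes, and 5 passed as lower in pMb, where 15.8% of all genes did. Hoxd8 and Hoxd9 passed as higher, as 17.5% of all genes did. Both entered the test through their reads in pMb alone.

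The 5 lower genes were Hoxa3 and 4 members of HoxC. Hoxc10 stood at 56.4 and 64.7 CPM in control C2C12 and at 41.3 and 35.4 CPM in control pMb. These ranges did not overlap, and the log2 difference was -0.65 ± 0.16 (SE; edgeR adjusted p = 0.037). Hoxc9, a thoracic gene, stood at 18.4 and 20.9 CPM in C2C12 and at 9.92 and 10.2 CPM in pMb, a log2 difference of -0.96 ± 0.19 (edgeR adjusted p = 0.0206). Hoxc4, a cervical gene, showed the lowest adjusted p of the 5, with 17.5 and 18.6 CPM in C2C12 against 8.93 and 7.32 CPM in pMb, a log2 difference of -1.14 ± 0.21 (edgeR adjusted p = 0.0180). Hoxc6 fell from 28.3 and 36.0 CPM to 17.7 and 19.8 CPM, a log2 difference of -0.77 ± 0.19 (edgeR adjusted p = 0.0366). Hoxa3 fell from 7.60 and 9.45 CPM to 4.55 and 4.31 CPM, a log2 difference of -0.94 ± 0.25 (edgeR adjusted p = 0.0447). Its exons are shared with antisense genes over 25.4% of their length, so part of its reads could belong to them.

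**Figure D2:**
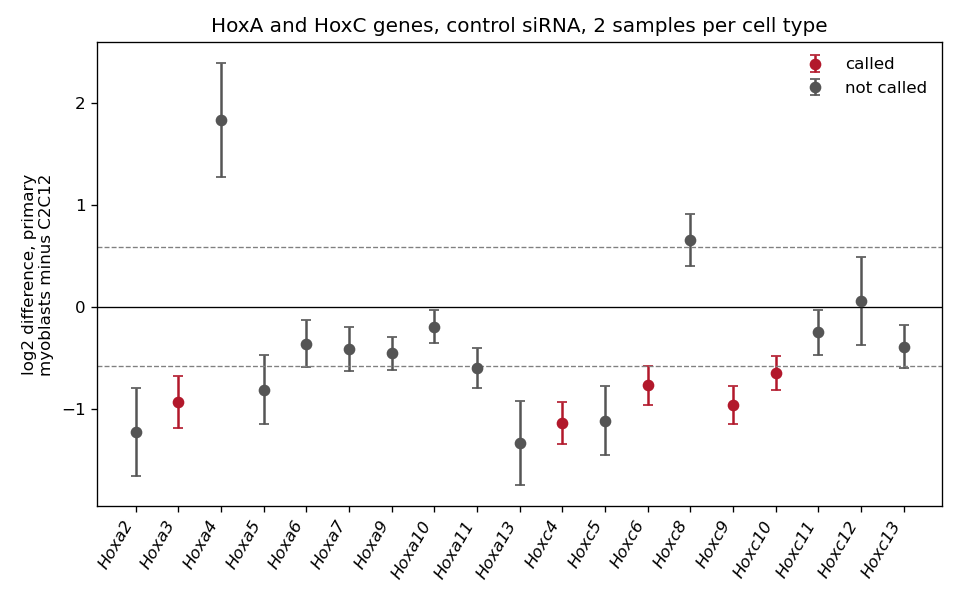
Log2 difference between control primary myoblasts and control C2C12 for 19 of the 20 HoxA and HoxC genes, with SE from the fit of 2 samples per cell type; dashed lines mark a 1.5-fold difference in each direction. Red points passed the test, and 16 of the 19 points lie below 0.

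Several other members differed by as much without passing. Hoxa13 was at 1.32 and 1.91 CPM in control C2C12 and at 0.56 and 0.71 CPM in control pMb, with a log2 difference of -1.34 ± 0.41 (edgeR adjusted p = 0.0614). Hoxc5 had a log2 difference of -1.12 ± 0.34 (edgeR adjusted p = 0.0589) and Hoxa2 of -1.23 ± 0.43 (edgeR adjusted p = 0.0822). Hoxa4 had the opposite sign, at 0.46 and 0.26 CPM in C2C12 and 1.63 and 0.89 CPM in pMb, a log2 difference of 1.83 ± 0.56 (edgeR adjusted p = 0.0594). Hoxc8 was at 3.55 and 4.01 CPM in C2C12 and 5.80 and 6.06 CPM in pMb (edgeR adjusted p = 0.105). Hoxa10 differed least among the well-expressed HoxA genes, at 29.7 and 35.4 CPM in C2C12 against 27.5 and 29.1 CPM in pMb. With the Septin9 siRNA samples included, 12 of the 20 HoxA and HoxC members were lower in all 4 pMb samples than in any of the 4 C2C12 samples, against 29.1% of all genes, and Hoxa4 was higher in all 4.

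These calls rested on few samples. Without replicate 1 of control C2C12 the count fell from 7 to 1, and without replicate 2 to 0, and it was 5 without replicate 1 and 4 without replicate 2 of control pMb. In the 4 Septin9 siRNA samples the same comparison called 9 members, among them 6 of the 7, where 37.2% of all genes were called. These samples came from the same experiments as the controls, so this was not an independent check. Hoxd8 and Hoxd9, which are among the 6, again entered the test through their reads in pMb alone.

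HoxD was the cluster present in pMb and absent from C2C12. In all 4 C2C12 samples together 8 of its 9 members had 0 reads, and Hoxd10 had 1. Hoxd8, a gene of the trunk, had 52 and 55 reads in control pMb and 44 and 73 after Septin9 siRNA, against 0 in every C2C12 sample. Taking 3 counts over both control C2C12 libraries as the floor, its level was at least 34.9-fold higher in control pMb (edgeR adjusted p = 0.00794). This and the later fold bounds take the pMb reads as counted, without their counting error or the spread between replicates. Hoxd9 had 13 and 27 reads in control pMb and 18 and 24 after the siRNA, and was at least 13.1-fold higher in control pMb (edgeR adjusted p = 0.0198). Hoxd8 and Hoxd9 both entered that test through their reads in pMb alone. Hoxd4 had between 6 and 13 reads in every pMb library, an at least 6.20-fold higher level in the controls, but shares 52.3% of its exon length with genes on its own strand, Hoxd3 among them. Hoxd8 remained the highest HoxD gene in each pMb library, and its mean of 0.78 CPM per kb in control pMb lay close to those of Hoxa3 (0.74) and Hoxc5 (0.86).

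HoxB, and some of the HoxD genes, had more reads in the pMb of replicate 2 than in those of replicate 1. HoxB gave 50 reads over the 2 pMb libraries of replicate 1 and 179 over those of replicate 2. Hoxb3 had 7 and 10 reads in replicate 1 and 43 and 23 in replicate 2, in the order control and Septin9 siRNA, and Hoxb9 had 1 and 2 against 15 and 11. In HoxD, Hoxd10 had 0 and 1 reads against 9 and 4, Hoxd11 0 and 0 against 4 and 3, and Hoxd13 0 and 1 against 5 and 4. The shift was not seen under both siRNAs for Hoxb4, with 5 and 10 reads against 16 and 10, or for Hoxd3, with 2 and 1 against 1 and 9. Hoxb6 had 0 and 3 reads against 3 and 10, so its counts were also higher after Septin9 siRNA in both replicates. It had too few reads to be tested, and its counts in replicate 1 lay within the floor of 3 counts. The summed reads of HoxA and HoxC did not share this shift, with 4693 and 4946 reads in replicate 1 and 4751 and 4831 in replicate 2. Single members moved either way under both siRNAs. Over the 2 pMb libraries of a replicate, Hoxa2 had 21 reads in replicate 1 and 40 in replicate 2, and Hoxc5 97 and 152. Hoxa4 fell from 96 to 45. Hoxb3 shares 52.9% of its exon length with the antisense gene Hoxb3os, which had 8 and 1 reads in replicate 1 and 12 and 12 in replicate 2.

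Other genes moved with the same 2 libraries. Pitx1, a hindlimb gene, had 0 reads in both pMb samples of replicate 1 and 100 and 92 in those of replicate 2. Dcn, a matrix proteoglycan of fibroblasts, went from 6 and 7 reads to 359 and 337, and Pdgfrb, a pericyte and fibroblast receptor, from 77 and 55 to 1160 and 1363. The 5 pericyte markers summed to 77.1 and 81.6 CPM in replicate 1 and to 144 and 189 CPM in replicate 2. Abcc9, 1 of the 5, went the other way, from 44.0 and 50.2 CPM to 8.84 and 33.1 CPM. The 8 myogenic markers summed to 6470 and 8149 CPM in replicate 1 and to 4004 and 5654 CPM in replicate 2. Control C2C12, a cell line, had higher sums than any pMb library for the other 2 lists. They were 159 and 200 CPM for the fibroblast markers and 265 and 334 CPM for the pericyte markers. These markers therefore do not show by themselves that other cell types were present. The part of this difference between the replicates in the HoxB and HoxD reads was not tested. In the libraries of replicate 1 Hoxd8 had 52 and 44 reads and Hoxd9 13 and 18. Without replicate 2 of control pMb Hoxd8 could still be tested, through its reads in pMb alone, while Hoxd9 had too few reads to be tested. In bulk RNA, fewer cells of a type and less RNA per cell cannot be told apart.

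**Figure D3:**
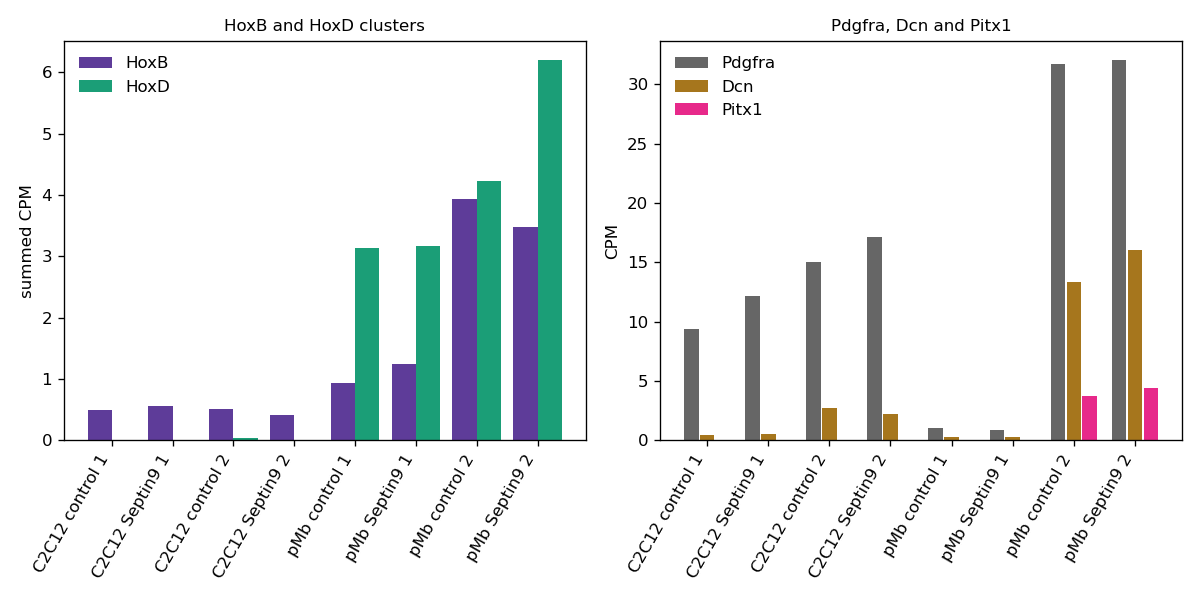
Summed CPM of the 10 HoxB and the 9 HoxD genes (left) and CPM of Pdgfra, Dcn and Pitx1 (right) in each of the 8 samples; pMb are primary myoblasts and each bar is 1 sample. HoxD is near 0 in all C2C12 samples, and HoxB, Pdgfra, Dcn and Pitx1 are higher in both primary myoblast samples of replicate 2 than in those of replicate 1.

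After Septin9 siRNA no Hox gene passed the threshold in either cell type. In C2C12 the 20 HoxA and HoxC members were tested and 0 passed an adjusted p of 0.05 with at least a 1.5-fold change, against 1.57% of the 15814 genes tested; 3 had an unadjusted p under 0.05, against 18.7% of all genes, and DESeq2 called 0. In pMb 27 members were tested and 0 passed, against 3.17% of 17117 genes; 0 had an unadjusted p under 0.05, against 16.7% of all genes, and DESeq2 called 0. The SE of the log2 change lay between 0.07 and 0.58 over the members tested in C2C12 and between 0.11 and 0.63 in pMb. The narrowest errors were those of genes with many reads, Hoxc10 among them, and small changes of the low genes were not detectable at this depth.

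By the adjusted p alone 2 members passed in C2C12, against 6.75% of all genes. Hoxa7, a thoracic gene, went from 16.9 to 12.6 CPM in experiment 1 and from 15.2 to 11.3 CPM in experiment 2. Both samples with Septin9 siRNA lay below both controls, and the Hoxa7 log2 change was -0.43 ± 0.11 (edgeR adjusted p = 0.0207). Hoxc10 went from 56.4 to 68.3 CPM and from 64.7 to 75.6 CPM, again without overlap, with a log2 change of 0.24 ± 0.07 (edgeR adjusted p = 0.0380). Neither passed with DESeq2, whose adjusted p was 0.537 for Hoxa7 and 0.531 for Hoxc10. With 1 experiment left out, which leaves 1 sample per condition, neither passed, and the log2 changes were -0.43 and -0.43 for Hoxa7 and 0.22 and 0.27 for Hoxc10. Hoxa7 shares 20.4% of its exon length with the antisense gene Hoxaas3. In pMb Hoxa7 went from 13.3 to 12.0 and from 10.6 to 9.96 CPM, a log2 change of -0.12 ± 0.15, and Hoxc10 from 41.3 to 48.3 and from 35.4 to 39.4 CPM, a log2 change of 0.19 ± 0.11 (edgeR adjusted p = 0.773 and 0.419).

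The direction of change in C2C12 was also counted by replicate pair. Of 10 HoxA members 6 had a negative log2 ratio in both pairs and 0 a positive ratio in both, and of the 9 HoxC members 5 were positive in both and 1 negative in both. Over all genes tested in C2C12 31.3% were positive in both pairs and 30.4% negative in both. The difference between the clusters was not tested. The median log2 change was -0.12 over HoxA and 0.17 over HoxC, while that over all genes was within 0.01 of 0. In experiment 1 HoxA gave 47.4% of the Hox reads in the control sample (exact 95% binomial interval 46.2 to 48.6%) and 42.8% after Septin9 siRNA (41.6 to 44.0%). In experiment 2 it gave 43.9% (42.8 to 45.0%) and 38.6% (37.4 to 39.7%). These intervals cover counting error only. The share of HoxA in the controls differed by 3.48 percentage points between the experiments, and it fell by 4.60 and 5.35 points after the siRNA. Hoxc10 weighed on these shares. In experiment 1 it went from 56.4 to 68.3 CPM while HoxC as a whole went from 154 to 170 CPM. In experiment 2 Hoxc10 went from 64.7 to 75.6 CPM and HoxC from 172 to 190 CPM.

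The same shares moved less in pMb. HoxA gave 47.8% of the Hox reads in control and 47.6% after Septin9 siRNA in experiment 1, and 48.5% and 46.2% in experiment 2. Of 10 HoxA members 2 were positive in both pairs and 5 negative in both, and of the 9 HoxC members 3 and 2, where 32.0% and 29.4% of all genes were. The 8 myogenic markers, which were not Hox genes, summed to 951 and 1448 CPM in control C2C12 and to 1429 and 1828 CPM after Septin9 siRNA, and 6 of them rose by the adjusted p, where 6.75% of all genes passed in either direction. In pMb, where the HoxA share moved less, the same markers summed to 6470 and 4004 CPM in control and to 8149 and 5654 CPM after Septin9 siRNA, and 3 rose and 2 fell by the adjusted p, against 4.99% of all genes in either direction. Their part in the HoxA and HoxC shares was not tested.

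**Figure D4:**
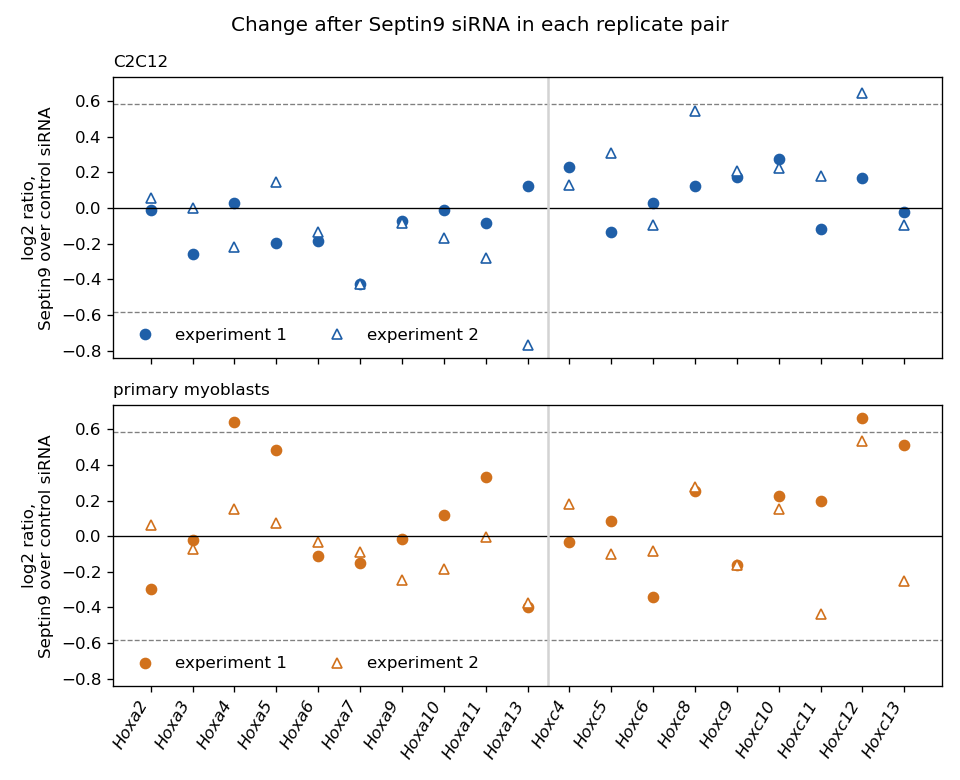
Log2 ratio of Septin9 siRNA over control siRNA for 19 of the 20 HoxA and HoxC genes in each of the 2 experiments, in C2C12 (top) and primary myoblasts (bottom); a grey vertical line separates HoxA (left) from HoxC (right), and dashed lines mark a 1.5-fold change in each direction. In C2C12 6 of the 10 HoxA genes drawn lie below 0 in both experiments and 5 HoxC genes above 0 in both.

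Some members moved differently in the 2 experiments. In C2C12 the log2 ratio of Hoxa13 was 0.12 in experiment 1 and -0.77 in experiment 2, and that of Hoxa5 was -0.20 and 0.15. In pMb that of Hoxc13 was 0.51 and -0.25, and that of Hoxa11 0.33 and -0.01. The largest log2 change of a tested member in either cell type was that of Hoxb2 in pMb, -0.73 ± 0.54 (edgeR adjusted p = 0.564), with 9 and 22 reads in control and 2 and 14 after the siRNA. The largest positive one was that of Hoxc12 in pMb, 0.66 ± 0.38 (edgeR adjusted p = 0.430), with 21 and 17 reads in control and 33 and 20 after the siRNA. Hoxd8 in pMb went from 52 to 44 reads and from 55 to 73.

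Whether the siRNA acted differently in the 2 cell types was tested in all 8 samples. With edgeR 0 of the 20 members tested in both cell types passed an adjusted p of 0.05, against 0% of all 17918 genes. DESeq2 called 0 members, but it gave Hoxa3 and Hoxa7, for example, no adjusted p. Such members could not have been called by DESeq2. Only Hoxc9 had an unadjusted p under 0.05, as 8.2% of all genes did (edgeR adjusted p = 0.604). Its log2 change was 0.19 ± 0.09 in C2C12 and -0.16 ± 0.16 in pMb, and it moved the same way in both pairs of each cell type.

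Hox proteins bind DNA with partners of the TALE homeodomain family, the Pbx, Meis and Pknox (Prep) proteins. Results are given for 8 of them. After Septin9 siRNA 0 passed in either cell type with edgeR or DESeq2; 2 in C2C12 (Pbx2 and Pknox2) and 1 in pMb (Pknox2) had an unadjusted p under 0.05, against 18.7% of all genes in C2C12 and 16.7% in pMb. Between control cell types 2 of the 8 were lower and 1 higher in pMb, where 15.8% of all genes were lower and 17.5% higher. Meis2 fell from 53.4 and 46.3 CPM in C2C12 to 10.5 and 14.7 CPM in pMb (log2 difference -1.98 ± 0.22; edgeR adjusted p = 0.00702), and Meis1 from 20.8 and 17.0 to 4.72 and 6.54 CPM (-1.73 ± 0.26; edgeR adjusted p = 0.0120). Pknox2 rose from 6.01 and 13.4 to 51.0 and 31.8 CPM (2.09 ± 0.46; edgeR adjusted p = 0.0273). The others, Pbx2, Pbx3, Pbx4, Meis3 and Pknox1, had log2 differences between -0.38 and 0.19. Pbx2 has further near-identical entries in the table and its counts are uncertain.

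Of 40 regulators of Hox genes, the Trithorax and Polycomb proteins, Cdx factors and the retinoic acid pathway among them, 33 were tested in C2C12 and 35 in pMb. After Septin9 siRNA 1 of them passed both thresholds, Cyp26b1 in pMb, where 3.17% of all genes did. Cyp26b1 is an enzyme that breaks down retinoic acid. It went from 27.1 to 15.5 CPM in experiment 1 and from 7.88 to 2.53 CPM in experiment 2. The controls of the 2 experiments differed more than the siRNA moved either, and within experiments the log2 change was -1.11 ± 0.18 (edgeR adjusted p = 0.00109). In C2C12 1 of the 33 passed by the adjusted p alone, against 6.75% of all genes. This was Ring1, a Polycomb protein, which went from 16.1 to 19.4 and from 17.3 to 25.1 CPM. Its log2 change was 0.41 ± 0.10 (edgeR adjusted p = 0.0166), under the fold threshold. Ring1 did not pass with DESeq2 (adjusted p = 0.493), with all 8 samples in one edgeR fit (adjusted p = 0.146) or with either experiment left out (edgeR adjusted p = 0.343 and 0.923). Between control cell types 6 regulators were higher in pMb and 8 lower, of 35 tested, against 17.5% and 15.8% of all genes. Among them Aldh1a1 and Aldh1a2, which make retinoic acid, both passed as higher (edgeR adjusted p = 0.0198 and 0.0414). Aldh1a1 had 1 read in control C2C12 and 35 in control pMb, a ratio of 34.3 (exact 95% counting interval 5.76 to 1392). Aldh1a2 had 3 and 4 reads in control C2C12 and 22 and 288 in replicates 1 and 2 of control pMb. Both genes entered the test through their reads in pMb.

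Of 18 other genes within the clusters, antisense and microRNA genes among them, 6 were tested in each cell type after Septin9 siRNA. With edgeR or DESeq2 0 passed. In each cell type 1 had an unadjusted p under 0.05, as 18.7% of all genes did in C2C12 and 16.7% in pMb. Hoxaas2, an antisense gene in HoxA, came nearest, with 43 and 37 reads in control pMb and 80 and 55 after the siRNA (log2 change 0.94 ± 0.28; edgeR adjusted p = 0.0592). Hotair, a noncoding RNA of the HoxC cluster, was at 5.64 and 7.13 CPM in control C2C12 and at 2.79 and 2.45 CPM in control pMb (log2 difference -1.28 ± 0.29; edgeR adjusted p = 0.0283). Hoxa11os, antisense to Hoxa11, was at 33.9 and 38.4 CPM against 14.0 and 16.5 CPM (log2 difference -1.23 ± 0.18; edgeR adjusted p = 0.0105). Hoxa11 shares 35.0% of its exon length with Hoxa11os and had a log2 difference of -0.60 ± 0.20 (edgeR adjusted p = 0.0733), and no strand setting is given in the sources used here.

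A list of 13 genes of limb identity was examined beside the Hox levels. Tbx4, which marks the hindlimb, had 0 reads in both C2C12 controls and 106 and 79 in control pMb, at least 60.4-fold higher, while the forelimb gene Tbx5 had 0 reads in C2C12 and 0 and 5 in control pMb. Lbx1, needed by muscle precursors that migrate into the limb, had 0 reads in both C2C12 controls and 561 and 642 in control pMb, at least 393-fold higher (edgeR adjusted p = 0.00291). Emx2 had 0 reads against 180 and 126, at least 99.9-fold higher (edgeR adjusted p = 0.00688). Tbx4, Lbx1 and Emx2 entered the test through their reads in pMb alone. Shox2, a gene of the upper limb skeleton, went the other way, from 62.5 and 64.1 CPM in C2C12 to 0.47 and 6.32 CPM in pMb (log2 difference -4.19 ± 1.03; edgeR adjusted p = 0.0352). Between control cell types 5 of the 11 genes tested were higher and 3 lower in pMb, against 17.5% and 15.8% of all genes. Isl1, another of the higher genes, also entered through pMb, with 0 and 1 reads in control C2C12 and 11 and 16 in control pMb. In C2C12 1 of the 7 tested after Septin9 siRNA had an unadjusted p under 0.05, against 18.7% of all genes. By the adjusted p 0 of these 7 passed with edgeR or DESeq2. In pMb 2 of 12 passed the adjusted p with edgeR, against 4.99% of all genes. They were Lbx1 (log2 change 0.42 ± 0.12, edgeR adjusted p = 0.0425) and Tbx15 (0.43 ± 0.12, edgeR adjusted p = 0.0437). Both were under the fold threshold and not called by DESeq2 on the raw counts.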

How the data were processed

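PolyA RNA of 8 samples was sequenced as paired-end reads. Per the labels, the authors mapped reads with STAR 2.7.2 to GRCm38.p6 and deposited raw counts per gene from featureCounts 2.0.1. The study names a Gencode annotation, but all 42391 gene names matched RefSeq symbols, and the strand setting is not given in the sources used here. The authors also deposited a normalized signal for each cell type, made with ComBat-Seq and DESeq2, whose values were whole reads divided by size factors (100% of values within 0.01 of a whole read); these reads served 1 alternative. The 16 lines of the count table that were broken across rows were left out.

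edgeR 4.0.16 quasi-likelihood tests were run across all genes that passed filterByExpr, with TMM normalization and Benjamini-Hochberg adjustment. Septin9 fits used the replicate number, which marks an independent experiment, as a block: deviations of same-numbered samples correlated at 0.68 in C2C12 and 0.82 in pMb. Cell types were compared in the 4 controls without a block. Calls needed an adjusted p under 0.05 and a change of at least 1.5-fold. Pair ratios used a prior count of 2. Exon lengths were unions of GENCODE M21 exons (GRCm38), so levels per kb are approximate for RefSeq models. Promoter windows came from RefSeq (GRCm38.p6). Alternatives were DESeq2 1.42.0, other size factors and filters, other expression thresholds and lengths, and leaving out samples. The fits were tested on simulated data. Single values of 1 HoxA gene and 1 Hox partner gene are not reported here. The members and lists were chosen with earlier results of these data known. Named were members expressed in either control or passing an adjusted p in any fit, and list genes passing in a Septin9 fit or with a log2 difference of at least 3 between controls, plus the TALE genes; others, among them Hotair, Hoxa11os, Hoxaas2, Pitx1, Tbx5 and the low HoxB and HoxD genes, were chosen after their values were seen.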

Additional observations from a re-analysis of the deposited data

How the results depend on the processing

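No Hox gene passed both thresholds after Septin9 siRNA in C2C12 or in pMb under any normalization, filter or tool that was run. None was called for a different siRNA effect between the cell types either, though DESeq2 gave Hoxa3 and Hoxa7, for example, no adjusted p there. By the adjusted p alone the count was 2 in C2C12 and 0 in pMb. Without the replicate block these counts were also 0. Between control cell types the count of 7 Hox genes became 12 without a filter, 12 with all 8 samples in one fit and 4 with a replicate block, and ranged from 0 to 5 when 1 control sample was left out. It was 7 with RLE size factors and with library size alone, 8 with DESeq2, 5 with at least 10 counts in every sample and 9 in the Septin9 siRNA samples, an alternative chosen after seeing the data, as was the RefSeq-matched length. The 80 partner, regulator, cluster and limb genes gave 1 call in pMb, 2 without a filter, 2 with at least 10 counts in every sample, 0 without the replicate block, 3 by the adjusted p alone and 1 to 2 with 1 replicate left out. In C2C12 they gave 0 calls and 1 by the adjusted p alone. Between control cell types they gave 28, and 4 to 24 with 1 sample left out. For the difference in siRNA effect they gave 0, 2 without a filter and 0 to 5 with 1 replicate left out. With the settings used above, 3.17% of all genes tested were called in pMb, 1.57% in C2C12 and 33.3% between control cell types. Not all of the 80 were tested in each fit, and the counts over all genes also changed with the setting. With 1 sample left out, the lone sample was assumed to vary like the others. The counts of expressed members, 18 and 17, stayed between 13 and 19 in C2C12 and between 12 and 22 in pMb under the other thresholds, lengths and scalings and with either replicate left out. No called difference of a Hox gene changed sign. Hoxd8 and Hoxd9 could not be tested at 10 counts in every sample, because C2C12 held no reads of either.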
